A study of Homo sapiens with 6 samples.

Results

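Transcripts of the hypoxia pathway and of glycolysis were followed after a short exposure to cortistatin A in MV4;11, a human cell line from acute myeloid leukaemia that carries an MLL-AF4 rearrangement. The 35 members were chosen by gene symbol: 16 belong to the hypoxia pathway, and 19 carry glucose or lactate across the membrane or catalyse and regulate glycolysis. Of these, 33 were matched to at least 1 probe set that names no other gene, among 19775 genes measured in all. CA9 of the first class and SLC16A3 of the second were not analysed here. Each gene is represented by its probe set with the highest mean over all arrays, and its other probe sets are given where they disagree.

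Cultures of this single line were kept for 3 h with the solvent DMSO (3 arrays) or with 25 nM CA, named cortistatin A in the series title (3 arrays), and no other treatment or genotype enters. The compound, a marine steroidal alkaloid, blocks the Mediator kinases CDK8 and CDK19, and the comparison asks which transcripts differ early after that inhibition. Triplicate wells are described, but not whether these were independent cultures, so the p-values cover only the spread among these arrays, which may be technical. Values are log2 RMA signals from Affymetrix U133 Plus 2.0 arrays (3'-primed, 1 colour), and changes are cortistatin A minus DMSO with limma standard errors. A gene whose mean lay at or below 3.74, the median over all probe sets, is called dim, and the others bright. RNA from a whole culture was measured, so fewer cells with a transcript and less of it per cell cannot be told apart.

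Among 11 myeloid markers 9 were bright, and LYZ, CEBPA, FLT3 and KIT lay 5.05 to 8.67 log2 units above that median. PTPRC, CSF1R, MPO, ITGAM and SPI1 lay 0.62 to 3.69 above it, whereas CD14 and FCGR1A were dim. Bright were also 2 of 4 T cell, 2 of 3 B cell and 2 of 2 erythroid markers. These reached at most 0.65, 1.38 and 0.96 above the median. None of 3 epithelial markers was bright, and COL1A1 of the fibroblast markers stood 2.37 above the median. For the actin control, the 3' probe set exceeded the 5' one by 1.75 ± 0.06 on the DMSO arrays and by 1.95 ± 0.11 on the treated arrays (SD, n = 3), without overlap, which measures how complete the labelled RNA is. The mean of this difference over 19 control transcripts overlapped between the groups (1.09 to 1.16 and 1.15 to 1.18). Among the 19 only actin, GAPDH and ISGF3A are human, and the others are bacterial or phage sequences. Their mean therefore does not measure the RNA of the cells alone. On all cortistatin A arrays 3 of the 19 were higher, actin and the bacterial DapX and ThrX, and 0 lower. GAPDH and ISGF3A overlapped.

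Cells sense oxygen through prolyl hydroxylases of the EGLN family, which mark the alpha subunits of the hypoxia-inducible factors, HIF1A and EPAS1, for destruction while oxygen is present. When the subunits persist they bind DNA with ARNT at a short core sequence and induce genes for glucose uptake, glycolysis, blood vessel growth and mitophagy. The Mediator kinase CDK8 has been described as a coactivator of HIF1A at such genes and as a positive regulator of glycolysis in other cancer cells. Acute leukaemia cells are known for a high rate of glycolysis.

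No member passed the test: limma called 0 of 33 at an adjusted p under 0.05, where 0.582% of all genes were called (0.445% higher and 0.137% lower). At an unadjusted p under 0.05 there were 9 members (27.3%), 7 higher and 2 lower with cortistatin A, against 12.6% of all genes (6.81% higher and 5.83% lower) and 14.9% of the bright genes, to which 31 of the 33 belong. Members were chosen with earlier results of these data known, so these shares are no test of the list. The 9 were KDM3A and SLC2A3 on the lower side and ADM, HK2, VEGFA, NDRG1, ALDOC, DDIT4 and EGLN1 on the higher side. Groups did not overlap for 10 members (30.3%), 8 higher and 2 lower, nor for 19.4% of all genes (10.2% higher and 9.22% lower) and 24.9% of the bright ones. With a gene's probe sets averaged, 5 members had an unadjusted p under 0.05, without probe sets of the _x_at and _s_at types, designed to match several transcripts, 5 of the 20 still measured, and with the 3' to 5' mean of the controls as a covariate 4, namely KDM3A, VEGFA, NDRG1 and SLC2A1. That mean leaves out the ribosomal RNA controls, a choice made after a version with them had been seen, under which 7 members had an unadjusted p under 0.05.

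**Figure D1:**
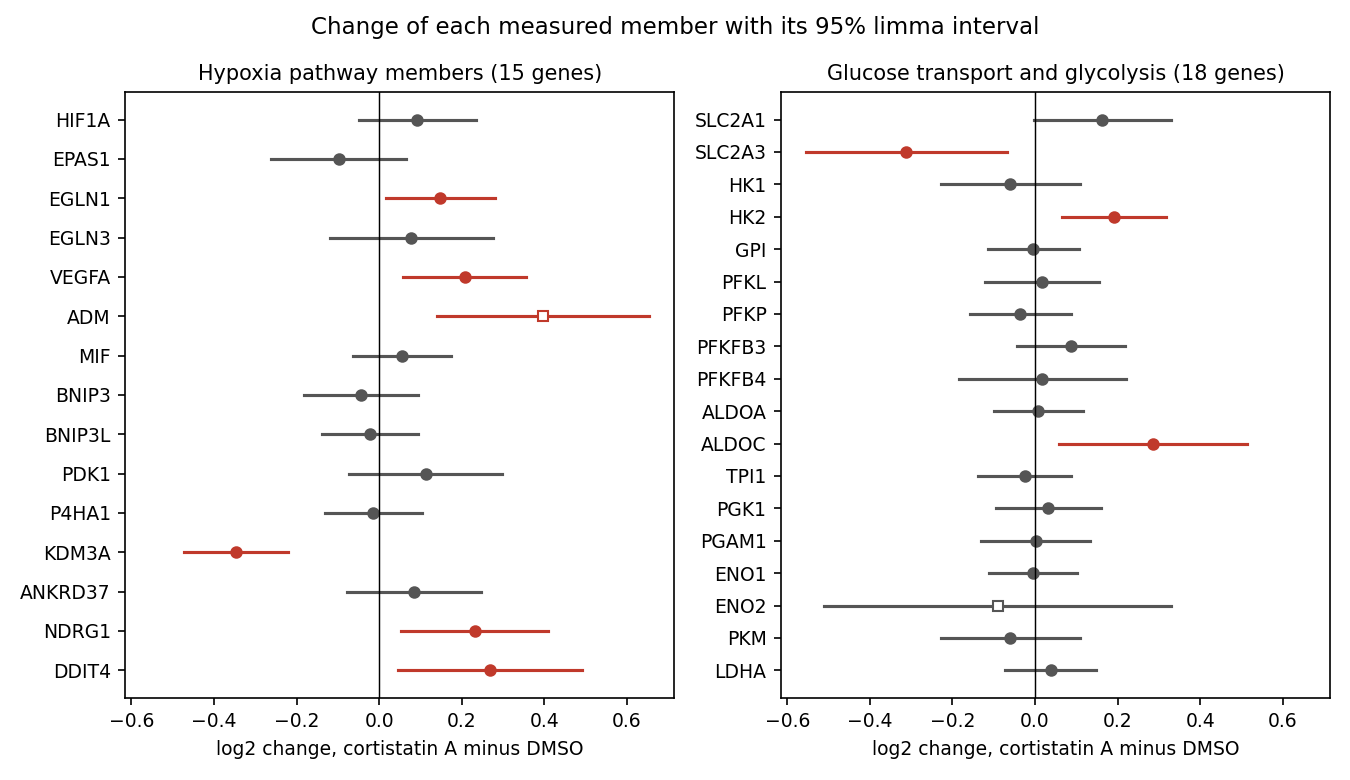
Log2 change of each of the 33 measured members, cortistatin A minus DMSO, with 95% limma intervals as bars. Points in red have an unadjusted p under 0.05, and open squares (ADM, ENO2) are dim genes. Of the glycolytic enzymes all but HK2 and ALDOC have intervals that include 0, while the hypoxia members spread from -0.35 (KDM3A) to 0.40 (ADM).

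Promoters are shown for the members with the smallest p that have an entry in the sequence table and hold ACGTG or GCGTG on either strand. Either is the core of a hypoxia response element, printed so that matches can be seen beside the values. Binding of HIF was not measured. Of the 9 members, 3 (VEGFA, NDRG1 and SLC2A3) had no entry. Each RefSeq window (GRCh38.p14, gene strand, 5' to 3') covers 250 bases before the transcript start and 50 after it, with every match in capitals. They are KDM3A at chr2:86441121-86441420 (plus strand), ADM at chr11:10304823-10305122 (plus strand), HK2 at chr2:74834920-74835219 (plus strand) and ALDOC at chr17:28576846-28577145 (minus strand).
KDM3A: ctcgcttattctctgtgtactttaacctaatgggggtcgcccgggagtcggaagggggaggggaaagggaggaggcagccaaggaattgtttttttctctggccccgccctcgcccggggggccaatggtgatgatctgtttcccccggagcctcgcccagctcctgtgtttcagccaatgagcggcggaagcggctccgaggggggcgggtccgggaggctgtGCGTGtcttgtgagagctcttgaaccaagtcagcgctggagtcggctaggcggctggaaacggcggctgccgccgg
ADM: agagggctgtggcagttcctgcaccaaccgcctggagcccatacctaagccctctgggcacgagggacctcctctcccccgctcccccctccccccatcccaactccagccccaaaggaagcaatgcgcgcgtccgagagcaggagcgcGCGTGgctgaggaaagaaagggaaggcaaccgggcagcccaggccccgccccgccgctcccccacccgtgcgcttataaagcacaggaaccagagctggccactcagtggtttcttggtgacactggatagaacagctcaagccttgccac
HK2: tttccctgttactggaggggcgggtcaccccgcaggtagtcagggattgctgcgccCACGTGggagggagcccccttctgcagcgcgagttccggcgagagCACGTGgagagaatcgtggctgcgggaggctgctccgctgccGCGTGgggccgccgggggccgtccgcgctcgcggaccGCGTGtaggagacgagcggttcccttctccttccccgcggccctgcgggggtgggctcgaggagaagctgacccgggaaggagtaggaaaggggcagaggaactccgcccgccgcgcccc
ALDOC: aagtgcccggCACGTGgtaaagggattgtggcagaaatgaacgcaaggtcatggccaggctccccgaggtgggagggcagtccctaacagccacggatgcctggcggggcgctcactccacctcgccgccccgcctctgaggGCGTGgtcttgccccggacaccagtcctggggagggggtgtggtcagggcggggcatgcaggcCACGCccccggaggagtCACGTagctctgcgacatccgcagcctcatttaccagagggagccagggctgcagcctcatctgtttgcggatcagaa

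KDM3A had 1 match, GCGTG, with its first base at -26 from the start, and ADM had 1, also GCGTG, at -101. KDM3A and HK2 have 2 windows each: the one with more matches was taken for HK2, and the upstream one for KDM3A, whose windows hold 1 match each. The HK2 window had 6 matches, 4 of which lie within a pair of CACGTG palindromes that MYC and other helix-loop-helix factors also bind, so the strands of 1 site are counted apart. ALDOC had 5, with 2 inside such a palindrome. A match is common: 48.4% of all 35116 windows held at least 1, as did 39 of the 53 windows (73.6%) of the 31 members in the table. Among glycolysis members whose values stayed level, PGK1 had 4 matches and LDHA 6 in its richest window.

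The factors themselves differed by less than the test could call. HIF1A, the oxygen-labile subunit, stood at 9.35, 9.33 and 9.21 on the DMSO arrays and at 9.42, 9.34 and 9.41 with cortistatin A, so the groups overlapped and the change was 0.09 ± 0.06 (limma adjusted p = 0.5855). EPAS1, its paralog, gave 5.014, 5.154 and 4.960 against 5.003, 4.884 and 4.946, a change of -0.10 ± 0.07 with overlap (limma adjusted p = 0.613). Both 95% intervals lay within 1.2-fold in either direction. Both dim probe sets of EPAS1 were also negative.

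Among the oxygen sensors EGLN1, the main hydroxylase of the factors and itself a HIF target, read 8.80, 8.88 and 8.82 in DMSO and 9.02, 8.91 and 9.02 with the drug. All cortistatin A arrays were above all DMSO arrays, by 0.15 ± 0.06 (limma unadjusted p = 0.0335, adjusted p = 0.3415). Its other bright probe sets did not share this, at -0.02 and -0.12, and the mean of its 4 probe sets was 0.04. EGLN3, the most hypoxia-inducible of the hydroxylases, read 4.04, 4.09 and 3.82 against 4.04, 4.13 and 4.01, with overlapping groups (0.08 ± 0.08). Without DMSO replicate 3, its lowest array, the EGLN3 value was -0.0039.

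KDM3A, a HIF-induced demethylase of histone H3, was the member with the smallest p and the only hypoxia member whose groups separated downward. It stood at 8.353, 8.385 and 8.299 in DMSO and at 8.045, 7.947 and 8.003 in cortistatin A. The 3 treated arrays lay below all controls by more than the range within either group. The change was -0.35 ± 0.05, or 1.27-fold lower, with an interval of -0.47 to -0.22 (limma unadjusted p = 0.000388, adjusted p = 0.0577). It passed the test when dim genes were left out (limma adjusted p = 0.0158), after a further quantile normalization (0.0476) and with trend and robust variances (0.000266), over a range of 0.000266 to 0.399 among its alternatives. The other probe set of KDM3A was dim, with a DMSO mean of 1.32, and at 0.05, and both are of the _s_at or _x_at type.

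Secreted products of the pathway all had positive changes. VEGFA, the main angiogenic growth factor, read 6.77, 6.72 and 6.73 in DMSO and 6.97, 6.84 and 7.03 with cortistatin A, so every treated array was higher. The change was 0.21 ± 0.06 (limma unadjusted p = 0.0137, adjusted p = 0.251). Its probe sets disagreed: a weaker bright one had 4.21, 4.24 and 4.19 in DMSO and 3.96, 4.15 and 4.03 in cortistatin A, all lower (-0.16), and the mean of all 4 was 0.04. ADM, the vasodilator peptide adrenomedullin, was dim, with 2.28, 2.50 and 2.28 against 2.65, 2.65 and 2.96. Its groups did not overlap and its change was 0.40 ± 0.11 (limma adjusted p = 0.214). MIF, a cytokine with very high signal, was higher on all treated arrays by only 0.06 ± 0.05, and its interval stayed within 1.2-fold.

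Both stress-response members were higher on average. NDRG1, a hypoxia- and stress-induced differentiation gene, read 8.50, 8.43 and 8.51 in DMSO and 8.59, 8.70 and 8.85 with cortistatin A. The groups were apart, and the change was 0.23 ± 0.07 (limma unadjusted p = 0.0185, adjusted p = 0.2775). It passed with trended, robust variances (limma adjusted p = 0.0296, with 0.0296 to 0.546 among its alternatives). DDIT4, an inhibitor of mTORC1 signalling, read 4.95, 5.19 and 4.94 against 5.30, 5.40 and 5.18. The lowest treated array lay just under the highest control, so the groups overlapped (0.27 ± 0.09, limma unadjusted p = 0.0245, adjusted p = 0.303). With the 3' to 5' covariate the DDIT4 value was 0.09 (0.20 with ribosomal RNA controls kept in it), and its unadjusted p was under 0.05 in 2 of the 6 fits that leave out 1 array.

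The mitophagy receptors BNIP3 and BNIP3L, which carry mitochondria to autophagosomes in hypoxia, were at -0.04 ± 0.06 and -0.02 ± 0.05 with overlapping groups. Their bright second probe sets were at -0.01 and -0.06, and both main intervals lay within 1.2-fold. P4HA1, a collagen prolyl hydroxylase, was at -0.01 ± 0.05. PDK1, the kinase that closes pyruvate dehydrogenase to pyruvate in hypoxia, was at 0.11 ± 0.08, while its other bright probe sets were at -0.01 and -0.15. ANKRD37, a small ankyrin-repeat protein and sensitive HIF target, was at 0.08 ± 0.07. For PDK1, P4HA1 and ANKRD37 the groups overlapped.

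As a class, 10 of the 15 measured hypoxia members had a positive change and 5 a negative one. At an unadjusted p under 0.05 were 6 (40.0%), 5 higher and 1 lower, beside 12.6% of all genes and 14.9% of the bright ones. Of these 6 ADM was dim, and EGLN1 and VEGFA left the count with averaged probe sets (limma unadjusted p = 0.630 and 0.489). The median change of the 15 members was 0.08, beside 0.0065 over all genes, of which 52.4% were positive. Without DMSO replicate 3 that median was 0.05, with the mean of all probe sets 0.04 and with the 3' to 5' covariate 0.04 (0.07 with ribosomal RNA controls kept in it).

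**Figure D2:**
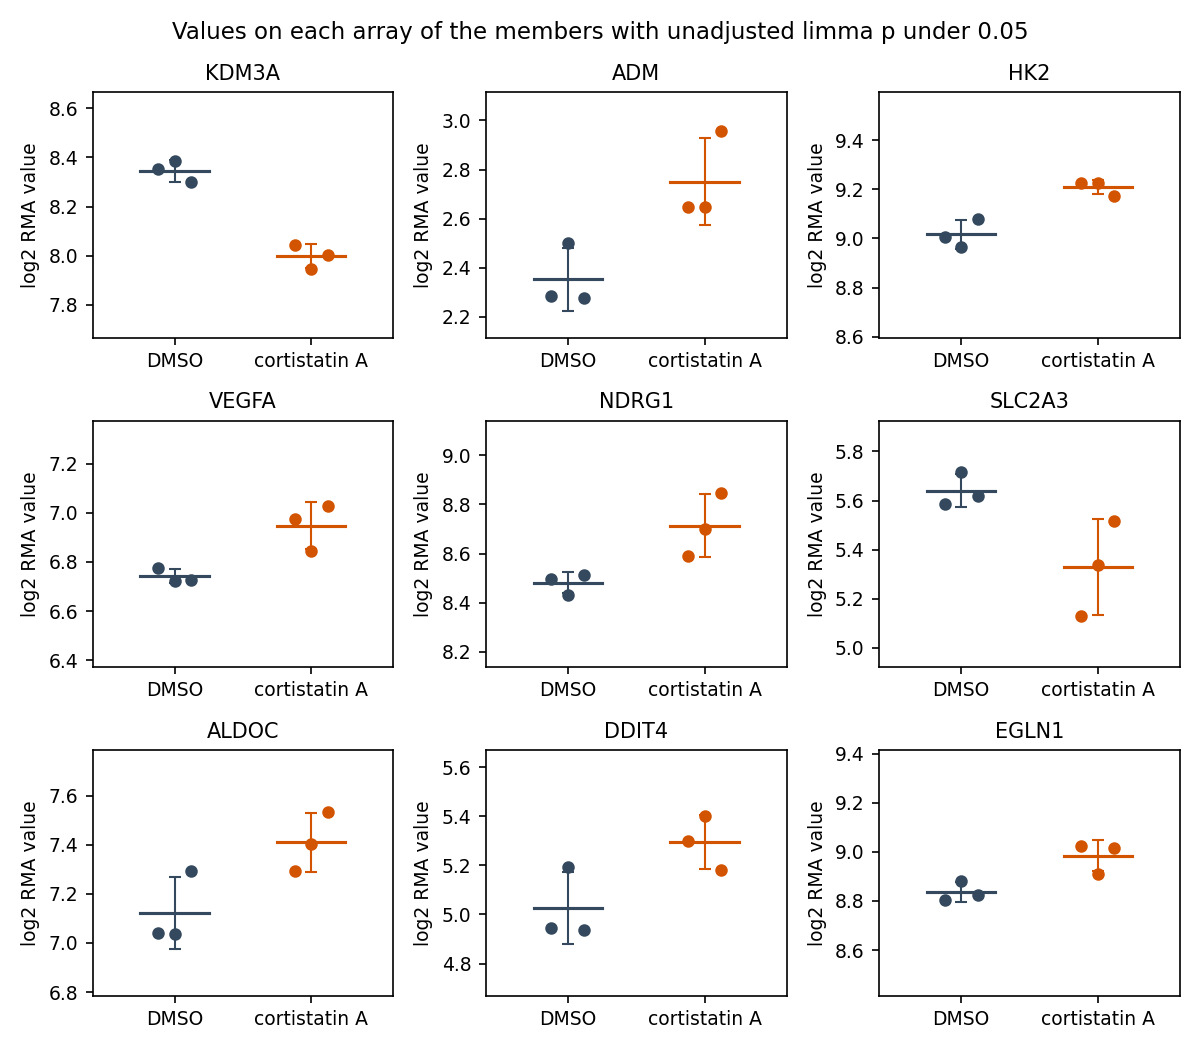
Log2 RMA value on each array (points) with group mean (line) and SD (bar, n = 3) for the 9 members with an unadjusted limma p under 0.05; each axis spans 1 log2 unit. KDM3A and SLC2A3 are lower on all cortistatin A arrays, and of the others only DDIT4 overlaps between the groups.

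Glucose enters the pathway through facilitative transporters. On their main probe sets the measured pair had changes of opposite sign, and neither passed the test. SLC2A1 (GLUT1), the widely expressed and HIF-responsive carrier, read 6.68, 6.46 and 6.48 in DMSO and 6.70, 6.71 and 6.70 with cortistatin A. The treated arrays were nearly identical and above all controls, of which DMSO replicate 1 came close (0.16 ± 0.07, limma unadjusted p = 0.0532, adjusted p = 0.402). A dim second probe set of SLC2A1 was at 0.05 with overlap. SLC2A3 (GLUT3), a high-affinity carrier, read 5.59, 5.72 and 5.62 against 5.13, 5.34 and 5.52. All treated arrays were lower but spread widely, with a change of -0.31 ± 0.10, or 1.24-fold lower (limma unadjusted p = 0.0195, adjusted p = 0.281). Its 2 other probe sets, both bright, gave -0.27 and -0.05 with overlap. A pair of probe sets shared with its close copy SLC2A14 read 4.84, 4.97 and 4.93 against 4.42, 4.88 and 4.80 for the first, and 4.39, 4.39 and 4.50 against 4.27, 4.27 and 4.27 for the second. In the second the treated arrays were all lower, and in the first CA replicate 2 overlapped the controls. On these shared probe sets the signals of the copies cannot be told apart.

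Hexokinase commits glucose to the cell, and HK2, the inducible mitochondria-bound isozyme, read 9.005, 8.966 and 9.081 in DMSO and 9.227, 9.225 and 9.174 in cortistatin A. Its groups did not overlap, and the change was 0.19 ± 0.05, or 1.14-fold (limma unadjusted p = 0.00922, adjusted p = 0.218). It passed with trended, robust variances (limma adjusted p = 0.0113, with 0.0113 to 0.676 among its alternatives). The other bright HK2 probe set was at 0.01, and the mean of its 3 probe sets at 0.11. HK1, the constitutive isozyme, was at -0.06 ± 0.07 with overlap.

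The remaining steps down to fructose bisphosphate cleavage were level in most genes. GPI, which makes fructose 6-phosphate, was at -0.0037 ± 0.05, and the phosphofructokinase subunits PFKL and PFKP were at 0.02 ± 0.06 and -0.04 ± 0.05, with a second bright PFKL probe set at -0.0007. PFKFB3 and PFKFB4, which make and remove an allosteric activator of phosphofructokinase, were at 0.09 ± 0.05 and 0.02 ± 0.08, with overlapping groups. ALDOA, the main aldolase of most tissues, was at 0.01 ± 0.05. ALDOC, the brain-type aldolase and a HIF target, read 7.04, 7.04 and 7.29 in DMSO against 7.29, 7.40 and 7.53. The highest control came within rounding of the lowest treated array, though the groups did not overlap (0.29 ± 0.10, 1.22-fold, limma unadjusted p = 0.0213, adjusted p = 0.288). With trended, robust variances ALDOC passed (limma adjusted p = 0.0486, with 0.0486 to 0.666 among its alternatives), and in 3 of the 6 fits that leave out 1 array its unadjusted p was under 0.05.

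The lower part of glycolysis, from triose phosphates to lactate, showed no separation on the main probe set of any of its 7 measured members. Among all genes 19.4% separated, and 24.9% of the bright ones. PGK1, which makes the first ATP, read 12.11, 12.17 and 12.10 against 12.16, 12.11 and 12.21 (0.03 ± 0.05). ENO1, the major enolase, read 11.93, 11.95 and 11.93 against 11.94, 11.93 and 11.93 (-0.0047 ± 0.04). PKM, the pyruvate kinase of most non-liver cells, read 7.29, 7.18 and 7.18 against 7.05, 7.16 and 7.27 (-0.06 ± 0.07). LDHA, which regenerates NAD by making lactate and is a textbook HIF target, read 12.70, 12.75 and 12.71 against 12.77, 12.73 and 12.77 (0.04 ± 0.05). TPI1 and PGAM1 were at -0.03 and 0.0020, and ENO2, the neuronal enolase, was dim and at -0.09 ± 0.18. The 95% intervals of 6 of these 7 lay within 1.2-fold in either direction, ENO2 being the exception. The same held for 13 of all 18 measured glycolysis members and for 7 of the 15 hypoxia members. The share of all genes with such an interval was not computed, so these counts have no background to be read against.

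The brightest genes of this class also have weaker probe sets. Those of PGK1 that read 9.58 to 10.35 on single arrays were at -0.0034 to 0.04, beside 0.03 for the main one. The PGK1 probe set at 0.04 was higher on all treated arrays. The 2 weakest of the bright PGK1 probe sets were at -0.27 and -0.10 and were at odds with the rest. TPI1 likewise had bright probe sets at 0.04, with overlap, and at -0.15, lower on all treated arrays. For ENO1 the bright probe sets lay between -0.08 and -0.0047, and a dim one was at -0.26, lower on all treated arrays.

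**Figure D3:**
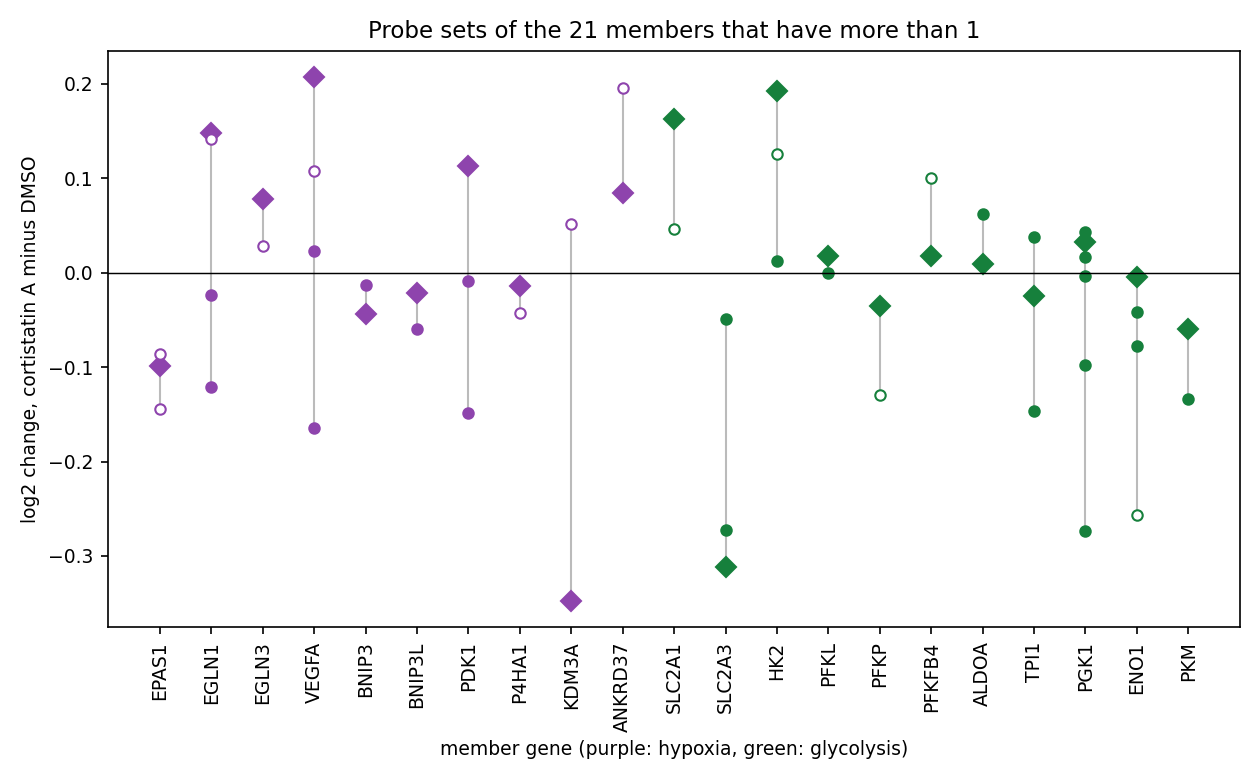
Log2 change of every probe set of the 21 members with more than 1 (diamond: the brightest, used in the text; circle: others; open: dim). Diamonds and filled circles lie on opposite sides of 0 for EGLN1, VEGFA, PDK1, PFKL, TPI1 and PGK1.

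In all, the 33 members have 70 probe sets, and in a limma fit of 54613 probe sets 0 of the 70 were called and 10 had an unadjusted p under 0.05. Only 28 of the 54613 were called, so 0 of 70 says little about the members. For the unadjusted count the share over all probe sets was not computed, so the 10 cannot be read as many or few. Of the members' 24 bright probe sets beside the main ones, 10 had the opposite sign.

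As a class, 10 of the 18 measured glycolysis members were positive and 8 negative, with a median change of 0.0053 beside 0.0065 over all genes. An unadjusted p under 0.05 was found for 3 (16.7%), HK2 and ALDOC higher and SLC2A3 lower. This share is near the 12.6% of all genes and the 14.9% of bright genes. With averaged probe sets HK2 and SLC2A3 left the count (limma unadjusted p = 0.229 and 0.0839). The median replicate SD of the glycolysis members was 0.06 in DMSO and 0.05 in cortistatin A, close to the 0.06 and 0.07 of all bright genes, to which 17 of the 18 belong.

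**Figure D4:**
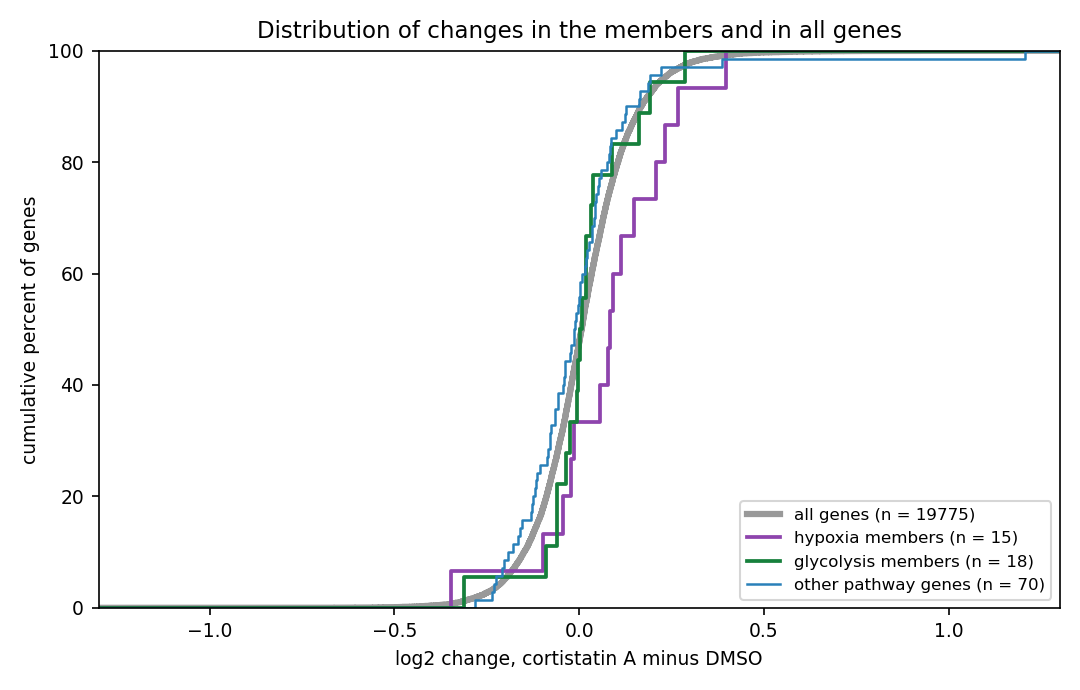
Cumulative distribution of the log2 change for all 19775 genes, the 15 hypoxia members, the 18 glycolysis members and 70 other pathway genes. The glycolysis curve has a median of 0.0053, near the 0.0065 of all genes. It is steeper, with a median absolute change of 0.037 beside 0.076 for all genes. The hypoxia curve lies to the right of that of all genes at its median of 0.08, while its lowest member, KDM3A, is at -0.35.

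Where close relatives read differently, the difference itself was tested. Over 9 pairs of isozymes or paralogs, the within-array difference between the relatives was compared between the groups by a two-sided exact permutation test, which with 3 against 3 arrays cannot go below p = 0.1. The largest shift was SLC2A1 against SLC2A3, 0.47 higher relative to SLC2A3 with cortistatin A, where the groups did not overlap (exact permutation p = 0.1, adjusted p = 0.3 over the 9 pairs). ALDOC against ALDOA (0.28) and HIF1A against EPAS1 (0.19) had the same p and no overlap. HK2 against HK1 differed by 0.25 but overlapped (exact permutation p = 0.2, adjusted p = 0.45). For the other 5 pairs the shifts were -0.02 to 0.09 (exact permutation p = 0.3 to 0.8). These pairs were tested after the data had been seen.

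The wider pathway was read from 76 further genes, 70 of them measured: 14 that control HIF, 30 other HIF targets, 15 of glycolysis and 11 at the entry of pyruvate into mitochondria. Limma called 2 of the 70, both higher and both HIF targets, against 0.582% of all genes, and 11 (15.7%) had an unadjusted p under 0.05, 4 higher and 7 lower, against 12.6%. The list was written with earlier results of these data known, so these shares are no test of the pathway. BHLHE40, a hypoxia-inducible helix-loop-helix repressor, rose from 5.88, 5.85 and 6.03 to 7.11, 7.08 and 7.18 (1.21 ± 0.07, limma adjusted p = 0.00433). A second bright probe set was at 0.06. CXCR4, the chemokine receptor, rose from 10.89, 10.89 and 10.97 to 11.31, 11.25 and 11.35 (0.39 ± 0.05, limma adjusted p = 0.0442), and its other probe sets were at 0.33 and 0.34. Leaving out DMSO replicate 1 or 2 or CA replicate 1 or 3 ended the call of BHLHE40 (limma adjusted p from 0.0585 to 0.0623), and leaving out any single array ended that of CXCR4 (limma adjusted p from 0.129 to 0.205). Over all alternatives the limma adjusted p was 8.7e-08 to 0.210 for BHLHE40 and 6.0e-06 to 0.394 for CXCR4.

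On their brightest probe sets the coactivators that HIF recruits were lower on all treated arrays, without passing: EP300 at -0.23 ± 0.05 (limma adjusted p = 0.131) and CREBBP at -0.17 ± 0.05 (limma adjusted p = 0.267). Both probe sets of EP300 were lower. For CREBBP the other bright probe sets were at -0.18, all treated arrays lower, and at 0.01 with overlap. A dim CREBBP probe set was at 0.36, all treated arrays higher, and the mean of the 4 CREBBP probe sets was 0.0050. EP300 was called with dim genes left out (limma adjusted p = 0.0384) and with trend and robust variances (0.00954). The iron importer TFRC was at 0.16 and TIGAR, a fructose bisphosphatase that slows glycolysis, at 0.22. INSIG2, a sterol sensor that is also a HIF target, was at -0.21, and PDP1, the phosphatase that opposes PDK1, at -0.19 on both its probe sets. The oxidase ERO1A was at -0.20 on its brightest probe set, but its other bright ones were at -0.03 and 0.03 with overlapping groups, and the mean of its 3 was -0.07. BPGM, which makes an allosteric effector of haemoglobin, was at -0.18 and the muscle phosphofructokinase PFKM, which was dim, at -0.23. These 7 had limma adjusted p from 0.193 to 0.385, and for each the groups did not overlap on the brightest probe set. They are named for an unadjusted p under 0.05 on the same arrays, so the lack of overlap adds no support. Of all 70 pathway genes, 21 (30.0%) did not overlap, beside 19.4% of all genes and 24.9% of the bright ones.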

How the data were processed

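Log2 expression values per probe set and array were deposited by the authors, and per the submitters' processing notes RMA from the affy package was used, whose version is not stated. The table does not state its scale. It was taken as log2, since the values lay between 0.81 and 13.84 and array medians between 3.74 and 3.77. RMA usually equalises intensity distributions, which would remove a shift of all transcripts together. The number of arrays, not depth, limits precision.

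Of 54613 probe sets other than controls, 41091 name 1 gene in the platform annotation. Symbols were updated through RefSeq gene identifiers for 41037 of them. The brightest single-gene probe set was used per gene. Limma 3.58.1 in R 4.3.3 (lmFit, eBayes, group as the only term, two-sided) was fitted to all 19775 genes, and Benjamini-Hochberg adjustment ran over all of them, with 4 residual and 2.68 prior degrees of freedom. Members, pathway list and alternatives were chosen with earlier results of these data known. Values on every array are given for members with an unadjusted p under 0.05, for bright members with an absolute change of at least 0.2, and, whatever their values, for HIF1A, EPAS1, EGLN1, EGLN3, VEGFA, SLC2A1, HK2, PGK1, ENO1, PKM and LDHA. The other pathway genes are named at an unadjusted p under 0.05. Further probe sets of a member are named where they are bright and of opposite sign or more than 0.2 apart. Up to 4 promoters are printed, in order of p.

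Alternative fits used a block for the replicate number, bright genes alone, averaged probe sets, no _x_at or _s_at types, a further quantile normalization, centring on 9 housekeeping genes, trend and robust variances, the mean 3' minus 5' signal of 19 control transcripts (ribosomal RNA excluded, or, as an alternative added after the data were seen, 21 with it) as a covariate, and each array left out. In 10 simulations on 19775 genes with 200 bright genes changed, the fit recovered 5.8% of 1.2-fold, 90.3% of 1.5-fold and 99.5% of 2-fold changes. Scanner files were not used here.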

Additional observations from a re-analysis of the deposited data

How the results depend on the processing

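Over all genes limma called 115, and 0 with the replicate block, 321 among bright genes alone, 76 with averaged probe sets, 54 without _x_at and _s_at types, 58 with housekeeping centring, 762 with trend and robust variances, 0 with the 3' to 5' covariate and 0 to 4 with 1 array left out. This covariate was first computed with the 18S and 28S ribosomal RNA controls, which were left out after its values had been seen. With them kept, limma called 0 genes, 0 members and 0 pathway genes, 7 members had an unadjusted p under 0.05, and the hypoxia and glycolysis medians were 0.07 and 0.0066. The titles number replicates 1 to 3 in both groups, but same-numbered arrays did not deviate together (r = -0.05, 0.01 and 0.02), so the block stands only here. Of the members, 0 were called, except 1 among bright genes alone, 1 after quantile normalization and 4 with trend and robust variances, and 0 with any array left out. An unadjusted p under 0.05 was reached by 9 members, 8 with the replicate block, 5 with the mean of probe sets, 5 without the 2 types, 4 with the covariate and 6 to 8 with an array left out. Of the other pathway genes 2 were called, 0 with the replicate block, 0 without the 2 types, 1 with housekeeping centring, 6 with trend and robust variances, 0 with the covariate and 0 to 1 with an array left out. The hypoxia median of 0.08 was 0.043 with the mean of probe sets, 0.038 with the covariate and 0.047 to 0.11 with an array left out. The glycolysis median was -0.035 without the 2 types and -0.0037 to 0.011 with an array left out. Signs turned with the covariate for 10 members, PDK1 (-0.0005, from 0.11), P4HA1 (0.029), ANKRD37 (-0.019), HK1 (0.046), GPI (0.017), PFKP (0.0036), PFKFB4 (-0.057), PGAM1 (-0.075), ENO2 (0.20, from -0.09) and PKM (0.052). With ribosomal RNA kept in it they turned for 7 of these, P4HA1 (0.0078), HK1 (0.0056), GPI (0.0066), PFKFB4 (-0.036), PGAM1 (-0.0335), ENO2 (0.051) and PKM (0.0059). They turned with the mean of probe sets for PDK1 (-0.015), PGK1 (-0.047) and CREBBP (0.0050), with housekeeping centring for ALDOA (-0.0059) and PGAM1 (-0.012), and with quantile normalization for PGAM1 (-0.014). With an array left out they turned for 8 members, EGLN3, P4HA1, GPI, PFKL, PFKFB4, ALDOA, PGAM1 and ENO2. Their ranges were -0.0039 to 0.13, -0.035 to 0.0040, -0.018 to 0.0080, -0.013 to 0.052, -0.046 to 0.078, -0.0053 to 0.017, -0.025 to 0.036 and -0.27 to 0.077, in that order. Fewer arrays or genes tested, a different spread or another probe set enter by construction, and other causes were not tested.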
